A study of Mus musculus with 12 samples.

Results

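The genes described here are 10 mouse genes best known from the egg and its follicle: 4 Nlrp genes (Nlrp4c, Nlrp4f, Nlrp5 and Nlrp14), 3 oocyte-specific homeobox genes (Obox3, Obox5 and Obox6), the growth factor genes Gdf9 and Bmp15, and Zp3. They were taken by gene symbol from the 23354 genes that all 12 libraries list, and all 10 were found. Levels are in FPKM, a level scaled to the length of the transcript and to the mapped fragments of the library, as the authors deposited them. With a minimum of 1 FPKM in at least 2 of the 12 libraries, 5 of the 10 genes passed (Nlrp4c, Nlrp4f, Nlrp14, Obox6 and Zp3) and 5 did not (Nlrp5, Obox3, Obox5, Gdf9 and Bmp15). Nlrp14 was the nearest above that minimum, at 1 FPKM or more only in both H3.1K36M libraries and 1 H3.1WT library, so it was tested because of its level in H3.1K36M, and Gdf9, with a highest value of 0.807 FPKM, the nearest below it.

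The study measured messenger RNA in embryonic stem cells of the J1 strain, grown in serum and leukaemia inhibitory factor on inactivated embryonic fibroblasts. One arm held cells named for histone H3.1 with lysine 36 changed to methionine (H3.1K36M), with lysine 9 changed to methionine (H3.1K9M) or unchanged (H3.1WT). The other arm held cells named for short hairpin RNAs against the H3K9 methyltransferases Suv39h1 (shSuv39h1) or Suv39h2 (shSuv39h2), or for a control hairpin (shNC). Each of the 6 groups had 2 libraries, and the labels do not say whether these came from separate cultures, clones or pools. The p-values below therefore rest on differences between the 2 libraries of a group that may be technical only.

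Growing mouse oocytes store messenger RNA and protein for the first days of the embryo. NLRP5, also called MATER, is a founding component of the subcortical maternal complex, a protein assembly under the egg membrane that the cleaving embryo needs. The OBOX homeodomain proteins act around the time when the embryonic genome is switched on, GDF9 and BMP15 are secreted by the oocyte and act on the surrounding granulosa cells, and ZP3 is a glycoprotein of the zona pellucida, the egg coat. Zona genes are activated in the oocyte by FIGLA, a basic helix-loop-helix factor that binds E-boxes. Methionine at lysine 9 or lysine 36 of H3 is known to lower methylation of that lysine across the genome, and SUV39H1 and SUV39H2 trimethylate H3K9 in heterochromatin.

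The RefSeq promoter table for GRCm38.p6 held 7 of the 10 genes, with 250 bases before and 50 bases after each start, and 5 promoters are printed below, 5′ to 3′ along the gene. Nlrp4c, Nlrp4f and Zp3 are shown because their RNA differed between groups, and Obox3 and Obox5 because their starts resemble each other. Capitals mark CANNTG, the E-box, which reads the same on both strands and includes CACGTG.
Nlrp4c, chr7:6044911-6045210, plus strand: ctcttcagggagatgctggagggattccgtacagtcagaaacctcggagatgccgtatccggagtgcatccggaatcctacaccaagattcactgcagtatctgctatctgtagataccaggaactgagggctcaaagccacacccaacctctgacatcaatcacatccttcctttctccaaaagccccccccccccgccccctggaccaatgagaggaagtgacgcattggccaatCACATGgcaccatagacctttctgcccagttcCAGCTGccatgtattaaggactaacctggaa
Nlrp4f, chr13:65205667-65205966, minus strand: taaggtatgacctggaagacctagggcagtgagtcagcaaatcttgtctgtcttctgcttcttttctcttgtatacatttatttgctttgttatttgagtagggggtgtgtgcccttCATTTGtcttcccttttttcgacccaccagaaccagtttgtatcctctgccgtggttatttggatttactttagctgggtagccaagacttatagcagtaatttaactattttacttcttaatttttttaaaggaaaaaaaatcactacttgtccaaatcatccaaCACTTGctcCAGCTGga
Zp3, chr5:135979855-135980154, plus strand: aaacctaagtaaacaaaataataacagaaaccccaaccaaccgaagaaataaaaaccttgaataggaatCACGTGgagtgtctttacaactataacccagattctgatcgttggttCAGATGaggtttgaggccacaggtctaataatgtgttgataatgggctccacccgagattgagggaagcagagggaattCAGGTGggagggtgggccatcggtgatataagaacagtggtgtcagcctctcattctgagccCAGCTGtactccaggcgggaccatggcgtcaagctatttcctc
Obox3, chr7:15639728-15640027, minus strand: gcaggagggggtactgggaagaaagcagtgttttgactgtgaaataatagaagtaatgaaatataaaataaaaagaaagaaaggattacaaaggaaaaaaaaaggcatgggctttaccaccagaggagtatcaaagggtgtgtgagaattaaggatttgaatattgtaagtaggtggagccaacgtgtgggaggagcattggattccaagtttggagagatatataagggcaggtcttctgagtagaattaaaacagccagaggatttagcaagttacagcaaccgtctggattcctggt
Obox5, chr7:15750120-15750419, plus strand: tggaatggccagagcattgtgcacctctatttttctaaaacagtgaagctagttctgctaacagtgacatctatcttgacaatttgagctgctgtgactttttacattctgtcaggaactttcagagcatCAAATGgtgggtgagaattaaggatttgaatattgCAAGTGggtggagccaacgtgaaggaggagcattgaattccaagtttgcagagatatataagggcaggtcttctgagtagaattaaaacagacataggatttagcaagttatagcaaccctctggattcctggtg

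The Zp3 window held 4 E-boxes, which began 181, 134 and 55 bases before the start and 7 bases after it, and the first of them was CACGTG. Nlrp4f held 3 E-boxes, Nlrp4c and Obox5 held 2 each, and Obox3 held 0. The 2 Nlrp5 windows held 2 each and the Bmp15 window held 1. Of all 32851 promoters in the table, 72.31% held CANNTG and 7.15% held CACGTG, so the E-box itself is common. Nlrp4c and Zp3 each had 7 CpG pairs in 300 bases, equal to the median of 7 over all promoters. Nlrp4f, Obox3 and Bmp15 had 2 each and Obox5 had 1. Nlrp5 had 9 in the first of its windows and 1 in the second. The Obox3 and Obox5 promoters aligned over 175 columns, of which 162 (92.6%) were identical. The next most similar pair, Nlrp4c and Obox3, aligned over only 30 columns. Other letters searched on both strands were TCCCGC, found in Nlrp5 and Zp3 and in 19.98% of all promoters, TAATTA, found in Nlrp5 and Bmp15 and in 5.29%, GGATTA, found in Obox3 and in 7.06%, and TAATTG, found in none of the 7 genes and in 8.0%. These matches describe the letters of the windows, not sites in use.

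In the GRCm38 annotation of GENCODE M21, 6 of the 10 genes lie on chromosome 7. Nlrp4c spans 6045161 to 6105150 on the plus strand, Nlrp5 spans 23385889 to 23441922 and Nlrp14 spans 107166990 to 107198102. Obox3 (15479825 to 15639902), Obox5 (15750131 to 15759800) and Obox6 (15833241 to 15839678) stand together in the Obox cluster. Nlrp4f lies on chromosome 13 (65177111 to 65205977, minus strand), Gdf9 on chromosome 11 (53431023 to 53437904), Zp3 on chromosome 5 (135980099 to 135988624) and Bmp15 on the X chromosome (6314107 to 6320721). Of the 100-base windows of their transcripts, 15.9% in Obox3 and 2.5% in Nlrp5 occur exactly in other genes. The pseudogene Obox3-ps3 shared the most with Obox3 and the pseudogene Nlrp5-ps with Nlrp5, so the FPKM of Obox3 and Nlrp5 are uncertain. The share of such windows was 0.9% or less in the other 8 genes. The RefSeq promoter window of Nlrp4f (65205667 to 65205966) lies wholly inside its GENCODE span. That of Obox5 (15750120 to 15750419) lies almost wholly, and that of Obox3 (15639728 to 15640027) in larger part, inside the span of its gene. The annotations thus place these starts differently, and the promoter windows above follow the RefSeq start.

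Nlrp4c, an oocyte-expressed member of the Nlrp4 cluster, had the widest range of the 10 genes. Its libraries held 5.67 and 5.55 FPKM in H3.1K36M, 0.321 and 0.315 FPKM in H3.1K9M, and 1.17 and 1.20 FPKM in H3.1WT. In the other arm it had 0.702 and 0.557 FPKM in shSuv39h1, 0.295 and 0.168 FPKM in shSuv39h2, and 0.554 and 0.751 FPKM in shNC. Both H3.1K36M libraries were above the 10 others, both shSuv39h2 libraries were below them, and shSuv39h1 overlapped shNC. The order of the group means was H3.1K36M, H3.1WT, shNC, shSuv39h1, H3.1K9M and shSuv39h2, in which shNC and shSuv39h1 did not differ beyond their spread. With the approximate depth of each library, these values correspond to about 501 and 477 fragments in H3.1K36M and to 26.8 and 16.4 fragments in shSuv39h2.

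Nlrp4f, whose protein associates with the subcortical maternal complex in mouse oocytes, followed the same order at the top and at the bottom. It had 3.69 and 3.93 FPKM in H3.1K36M, 0.830 and 0.852 FPKM in H3.1K9M, and 1.65 and 1.44 FPKM in H3.1WT. It had 1.04 and 1.01 FPKM in shSuv39h1, 0.509 and 0.680 FPKM in shSuv39h2, and 0.956 and 1.35 FPKM in shNC. As for Nlrp4c, both H3.1K36M libraries stood above and both shSuv39h2 libraries below all the others, and shSuv39h1 lay within the spread of shNC. The range of its levels was narrower than that of Nlrp4c.

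Nlrp14, expressed in oocytes and testis and needed from the mother for early development in the mouse, was lower. It had 1.84 and 1.84 FPKM in H3.1K36M, 0.689 and 0.729 FPKM in H3.1K9M, and 1.14 and 0.958 FPKM in H3.1WT. It had 0.815 and 0.893 FPKM in shSuv39h1, 0.479 and 0.164 FPKM in shSuv39h2, and 0.795 and 0.821 FPKM in shNC. H3.1K36M was again the highest group in both libraries and shSuv39h2 the lowest, although the shSuv39h2 libraries differed from each other more than those of any other group did for this gene. About 14.5 fragments stand behind the lowest of these values and about 148 behind the highest.

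Obox6, an Obox gene also expressed in preimplantation embryos, had 2.47 and 2.33 FPKM in H3.1K36M, 0.557 and 0.541 FPKM in H3.1K9M, and 0.716 and 0.909 FPKM in H3.1WT. It had 0.652 and 0.849 FPKM in shSuv39h1, 0.283 and 0.207 FPKM in shSuv39h2, and 1.62 and 1.25 FPKM in shNC. H3.1K36M was highest and shSuv39h2 lowest without overlap, and unlike the 3 Nlrp genes above, shSuv39h1 lay below shNC in both libraries. The control of the hairpin arm was the second highest group, where for those Nlrp genes it was H3.1WT.

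Zp3 had the highest level of the 10 genes in every library. It had 6.61 and 6.80 FPKM in H3.1K36M, 3.43 and 3.88 FPKM in H3.1K9M, and 4.58 and 3.87 FPKM in H3.1WT. It had 6.39 and 6.30 FPKM in shSuv39h1, 2.94 and 4.36 FPKM in shSuv39h2, and 5.55 and 6.70 FPKM in shNC. H3.1K36M stood above H3.1WT without overlap, but 1 shNC library lay within the H3.1K36M range. All libraries of H3.1K36M, shSuv39h1 and shNC were above all libraries of H3.1WT, H3.1K9M and shSuv39h2. Among the lower groups each overlapped the next in the order of means, as did shSuv39h1 and shNC among the higher ones.

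**Figure D1:**
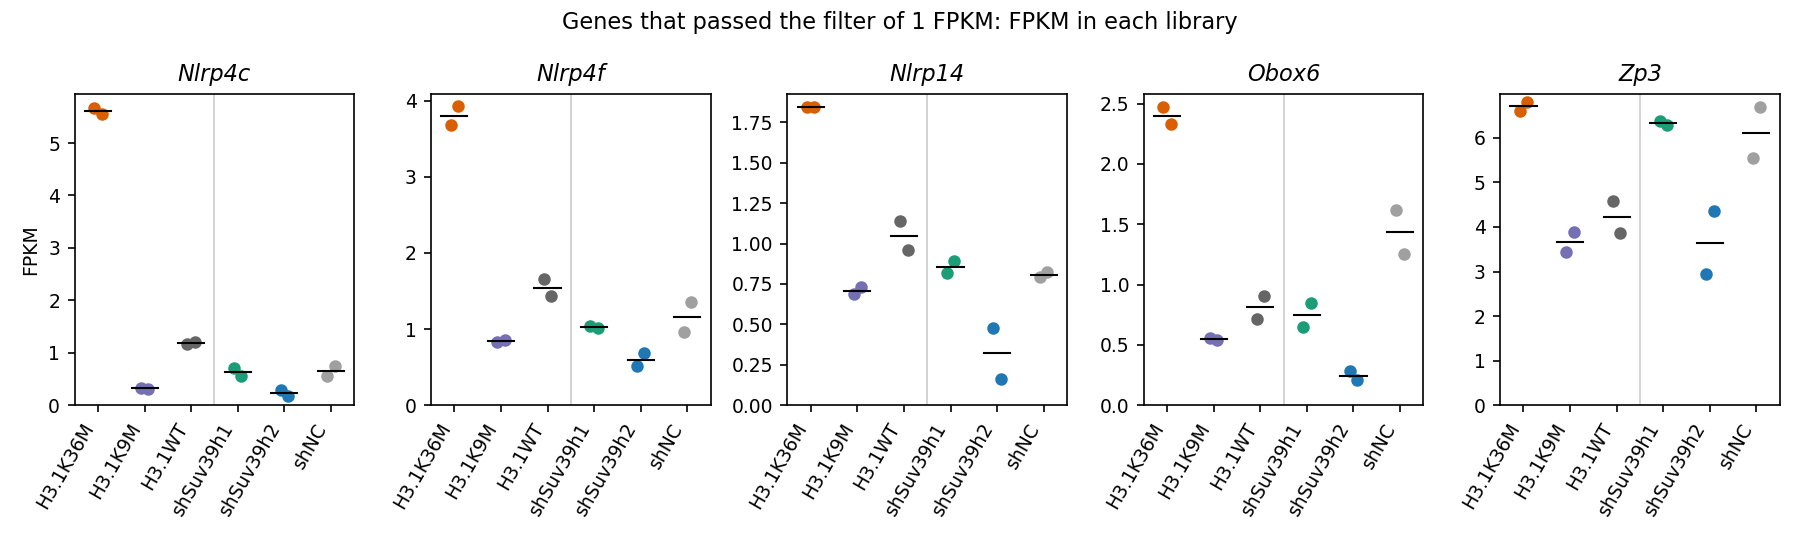
FPKM of Nlrp4c, Nlrp4f, Nlrp14, Obox6 and Zp3 in each of the 12 libraries, with 2 points a group, black lines for group means and each vertical axis on its own scale. The H3.1K36M points of Nlrp4c lie at 5.67 and 5.55 FPKM, and the shSuv39h2 points of the first 4 genes are the lowest of their panels.

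Both orders, H3.1K36M above and shSuv39h2 below the 10 other libraries, were found in 4 of the 10 genes (Nlrp4c, Nlrp4f, Nlrp14 and Obox6) and in 2.24% of the 13109 genes that passed the minimum. Nlrp5 also had both H3.1K36M libraries above the others, an order that 13.4% of those genes showed, while 7.67% had both shSuv39h2 libraries below the others, but its values correspond to about 1 or 2 fragments. The genes were chosen by name with results of the same libraries known, among them the high FPKM of Nlrp4c in H3.1K36M against H3.1WT, so these counts describe them and are no independent evidence of a direction.

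Among the genes below the minimum, Gdf9 had 0.277 and 0.288 FPKM in H3.1K36M, 0.682 and 0.425 FPKM in H3.1K9M, and 0.412 and 0.472 FPKM in H3.1WT. It had 0.488 and 0.528 FPKM in shSuv39h1, 0.447 and 0.315 FPKM in shSuv39h2, and 0.374 and 0.807 FPKM in shNC. For Gdf9, unlike the genes above, the H3.1K36M libraries were the lowest of all 12, and the other 5 groups overlapped at least 1 neighbour in the order of means. The share of all genes with this order was not counted. With a minimum of 0.3 FPKM, Gdf9 differed by -0.17 in H3.1K36M against H3.1WT (limma adjusted p = 0.515). The values of Gdf9 correspond to about 12.2 to 39.4 fragments.

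Bmp15, the X-linked partner of Gdf9, was listed at 0 in 4 libraries and never passed 0.0908 FPKM, its value in 1 H3.1K36M library, where the other had 0.0270 FPKM. Nlrp5, the maternal complex gene, was listed at 0 in 8 libraries, and its values were 0.0224 and 0.0118 FPKM in H3.1K36M, 0.0108 FPKM in 1 H3.1K9M library and 0.0102 FPKM in 1 shNC library. The Obox pair with the similar promoters was as sparse. Obox3 was listed at 0 in 9 libraries, with 0.0264 FPKM in 1 H3.1K36M library, 0.0277 FPKM in 1 H3.1WT library and 0.0473 FPKM in 1 shNC library. Obox5 was listed at 0 in 11 libraries and had 0.0361 FPKM in 1 shSuv39h1 library. At about 7 fragments or fewer in any library, differences of these 4 genes between groups were not detectable at this depth. Without the minimum, with 20045 genes tested, none of the 5 low genes passed the test in any of the 7 comparisons.

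**Figure D2:**
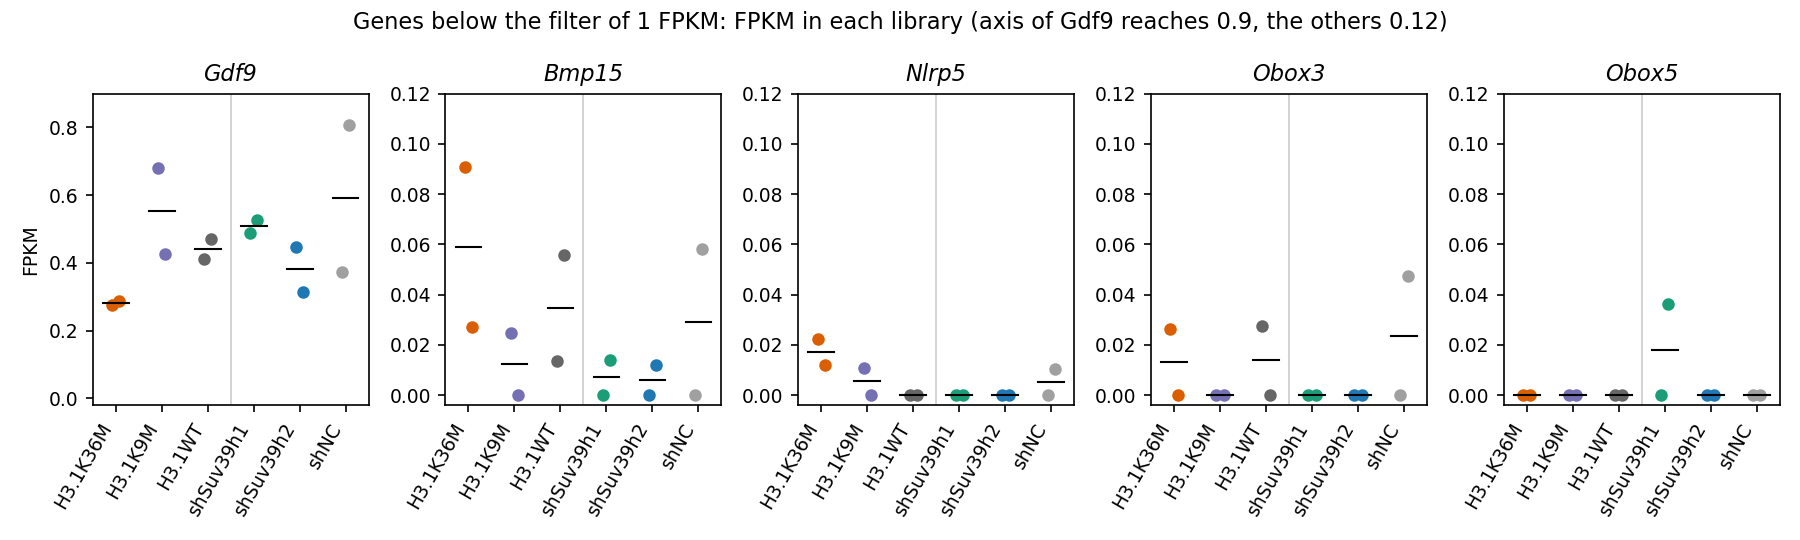
FPKM of Gdf9, Bmp15, Nlrp5, Obox3 and Obox5 in each of the 12 libraries, with black lines for group means and an axis that reaches 0.9 FPKM for Gdf9 and 0.12 FPKM for the others. Gdf9 lies at 0.277 and 0.288 FPKM in H3.1K36M, below its other points, and Obox5 is above 0 in 1 library.

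Set against H3.1WT in a limma fit over all 13109 genes, on the scale of log2(FPKM + 1), 3 of the 5 tested genes passed in H3.1K36M, all of them higher. Over all tested genes 4.84% passed in this comparison, 406 higher and 228 lower, and since it is the one in which Nlrp4c was known, nothing is read from the count. Nlrp4c averaged 5.61 ± 0.0876 FPKM in H3.1K36M and 1.18 ± 0.0280 FPKM in H3.1WT (SD, n = 2 each), a log2 difference of 1.60 ± 0.11 (SE) and a 4.73-fold ratio of means. Nlrp4f averaged 3.81 ± 0.170 FPKM in H3.1K36M and 1.55 ± 0.150 FPKM in H3.1WT, a difference of 0.92 ± 0.12 (limma adjusted p = 0.00321). For Obox6 the means were 2.40 ± 0.0984 FPKM in H3.1K36M and 0.813 ± 0.136 FPKM in H3.1WT, a difference of 0.91 ± 0.12 (limma adjusted p = 0.0033). Nlrp14 (0.47 ± 0.13, limma adjusted p = 0.0681) and Zp3 (0.56 ± 0.15, limma adjusted p = 0.0662) had no overlap between the groups but missed the threshold of 0.05. An order without overlap was seen in 38.2% of all tested genes in this direction. Without H3.1K36M replicate 1 or without replicate 2, Nlrp4f (limma adjusted p = 0.0534 and 0.0635) and Obox6 (0.0687 and 0.0536) no longer passed. Nlrp14 passed after quantile normalisation (0.0473) and with a minimum of 0.3 FPKM (0.0494).

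In H3.1K9M against H3.1WT, 1 of the 5 tested genes fell, beside 0.290% of all genes called lower and 0.0229% called higher. Nlrp4c averaged 0.318 ± 0.00466 FPKM in H3.1K9M and 1.18 ± 0.0280 FPKM in H3.1WT (SD, n = 2 each), a log2 difference of -0.73 ± 0.11 (limma adjusted p = 0.0313), with the H3.1WT mean 3.72-fold higher. That call was lost without H3.1WT replicate 1 (limma adjusted p = 0.264), H3.1WT replicate 2 (0.195) or H3.1K9M replicate 1 (0.0962), with a fit of the histone arm alone (0.171) and with a replicate block (0.0541). Nlrp4f (-0.47, limma adjusted p = 0.216), Nlrp14 (-0.26, 0.479) and Obox6 (-0.22, 0.511) were below H3.1WT in both libraries without passing. Zp3 (-0.17, limma adjusted p = 0.688) overlapped. Non-overlap in this direction was seen in 20.6% of all tested genes.

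The direct comparison of the mutant histones gave the widest differences. All 5 tested genes were higher in H3.1K36M than in H3.1K9M, where 5.57% of all genes were called higher and 2.67% lower, and 31.5% were higher without overlap. Nlrp4c differed by 2.33 ± 0.11 on the log2 scale (limma adjusted p = 4.07e-06), a 17.6-fold ratio of mean FPKM. Nlrp4f differed by 1.38 (limma adjusted p = 0.000192), Obox6 by 1.13 (0.000529), Nlrp14 by 0.73 (0.00818) and Zp3 by 0.73 (0.0175). Nlrp14 entered the test through its H3.1K36M libraries, so its call in this comparison is a description; with no minimum its limma adjusted p was 0.00707. Without H3.1K36M replicate 1 or replicate 2, Nlrp14 (limma adjusted p = 0.0867 and 0.088) and Zp3 (0.121 and 0.141) did not pass, and Zp3 did not without H3.1K9M replicate 1 (0.0506). The comparisons of H3.1K36M and of H3.1K9M with H3.1WT share the H3.1WT means, which this one does not use. Its SE and p-values still come from a spread shared by all 12 libraries. It also reuses the H3.1K36M libraries in which the high FPKM of Nlrp4c was known, so it gives no separate evidence for that gene.

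**Figure D3:**
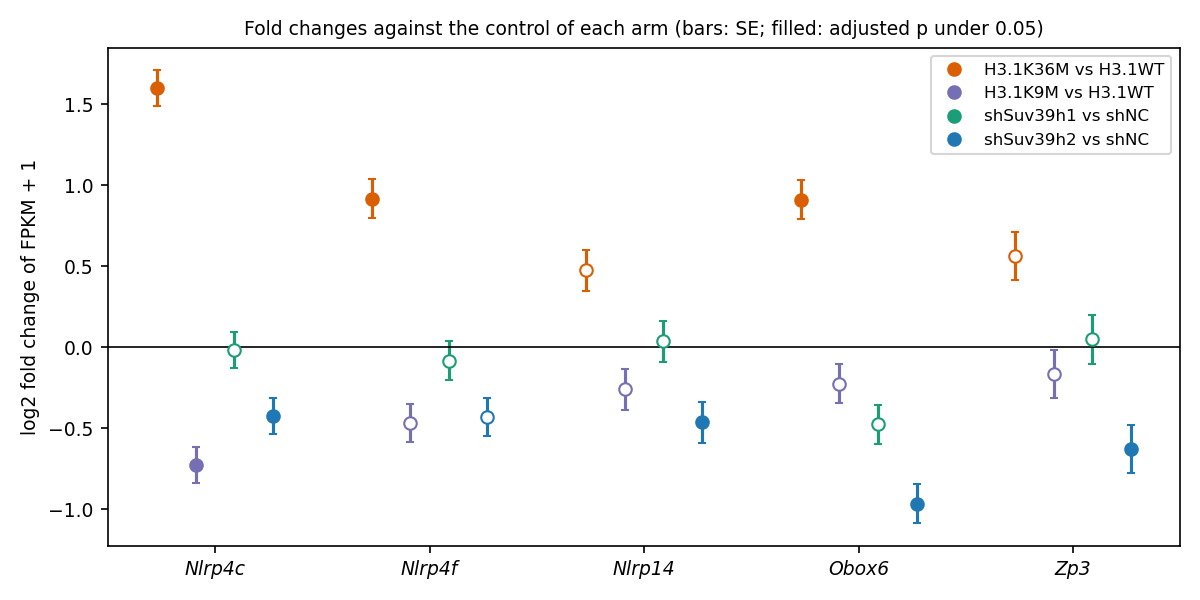
Log2 difference of FPKM + 1 for Nlrp4c, Nlrp4f, Nlrp14, Obox6 and Zp3 in H3.1K36M and H3.1K9M, each against H3.1WT, and in shSuv39h1 and shSuv39h2, each against shNC. Bars are the SE of the limma fit and filled points have an adjusted p under 0.05; Nlrp4c in H3.1K36M is at 1.60 and Obox6 in shSuv39h2 at -0.96.

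The hairpins were checked first on their targets. Suv39h2 averaged 1.68 ± 0.104 FPKM in shSuv39h2 and 4.79 ± 0.0106 FPKM in shNC (SD, n = 2 each; limma adjusted p = 0.000304). Suv39h1 averaged 5.01 ± 0.136 FPKM in shSuv39h1 and 8.05 ± 0.743 FPKM in shNC, which did not pass (limma adjusted p = 0.0877). In the histone arm Suv39h1 was also lower in H3.1K36M (7.25 ± 0.467 FPKM) than in H3.1WT (11.3 ± 1.38 FPKM; limma adjusted p = 0.0163). In shSuv39h2 against shNC, 4 of the 5 tested genes fell, beside 4.69% of all genes called lower and 5.35% called higher. Obox6 averaged 0.245 ± 0.0540 FPKM in shSuv39h2 and 1.44 ± 0.258 FPKM in shNC, a log2 difference of -0.96 ± 0.12 (limma adjusted p = 0.00211), with the shNC mean 5.86-fold higher. Zp3 averaged 3.65 ± 0.999 FPKM in shSuv39h2 and 6.12 ± 0.813 FPKM in shNC, a difference of -0.63 ± 0.15 (limma adjusted p = 0.0279). Nlrp4c (-0.42 ± 0.11, limma adjusted p = 0.0412) and Nlrp14 (-0.46 ± 0.13, 0.0482) passed narrowly, and Nlrp4f (-0.43 ± 0.12, 0.0503) did not. Obox6 alone kept its call when any 1 of the 4 libraries was left out and under every other setting tried. Without any 1 of the 4 libraries Nlrp4c missed the threshold (limma adjusted p = 0.0649 to 0.226), and after quantile normalisation it differed by -0.20 (0.278). Nlrp14 missed it after quantile normalisation (-0.26, 0.189) and without shNC replicate 1 (0.142), shNC replicate 2 (0.102) or shSuv39h2 replicate 2 (0.287). Zp3 missed it without shNC replicate 1 (0.053), shNC replicate 2 (0.0965) or shSuv39h2 replicate 1 (0.166), with no minimum (0.0526) and in the hairpin arm alone (0.0702). With a replicate block Nlrp4c (0.0518) and Nlrp14 (0.0553) missed it, while Nlrp4f passed with a minimum of 0.3 FPKM (0.0447), a pseudocount of 0.1 (0.0342) or median-of-ratios scaling (0.0386). The groups did not overlap in any of the 5 genes, as in 21.3% of all genes in this direction.

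In shSuv39h1 against shNC, none of the 5 tested genes passed, beside 0.0839% of all genes called higher and 0.0610% called lower. At an unadjusted p under 0.05, 1 of the 5 would be counted. That gene was Obox6, with 0.751 ± 0.139 FPKM in shSuv39h1 and 1.44 ± 0.258 FPKM in shNC and a log2 difference of -0.47 ± 0.12 (limma adjusted p = 0.207), without overlap, as in 12.7% of all genes in this direction. The other 4 differed by -0.08 to 0.05 and overlapped shNC. Set directly against shSuv39h2, shSuv39h1 had higher Zp3 (0.68 ± 0.15, limma adjusted p = 0.0301), Obox6 (0.49 ± 0.12, 0.0425) and Nlrp14 (0.50 ± 0.13, 0.048), beside 4.56% of all genes called higher and 2.00% called lower. Nlrp4c (0.40, limma adjusted p = 0.0613) and Nlrp4f (0.35, 0.123) did not pass. The groups did not overlap in any of the 5 genes, as in 30.0% of all genes in this direction. Without shSuv39h1 replicate 1, shSuv39h1 replicate 2 or shSuv39h2 replicate 1 none of the 3 passed, and without shSuv39h2 replicate 2 Zp3 alone did. After quantile normalisation Obox6 differed by 0.24 (limma adjusted p = 0.3) and Nlrp14 by 0.27 (0.21), and neither passed with a replicate block (0.0556 and 0.0568). Zp3 missed the threshold with no minimum (0.0535), and Zp3 (0.0781) and Obox6 (0.109) missed it in the hairpin arm alone. Nlrp4c passed with a pseudocount of 0.1 (limma adjusted p = 0.029), a minimum of 0.3 FPKM (0.0474) or none (0.0458), and after quantile normalisation it differed by 0.16 (0.408).

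The controls of the 2 arms were compared to place the levels side by side. None of the 5 genes passed between H3.1WT and shNC, beside 0.214% of all genes called higher and 0.122% called lower. At an unadjusted p under 0.05, 3 of the 5 would be counted. Nlrp4c averaged 1.18 FPKM in H3.1WT and 0.653 FPKM in shNC (log2 difference 0.41, limma adjusted p = 0.215), Obox6 averaged 0.813 FPKM in H3.1WT and 1.44 FPKM in shNC (-0.42, 0.23), and Zp3 averaged 4.23 FPKM in H3.1WT and 6.12 FPKM in shNC (-0.44, 0.305). The controls did not overlap in any of the 5 genes, as in 23.1% of all genes with H3.1WT higher and 16.3% with it lower, and levels set across the arms include this difference.

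Likeness across the 12 libraries is given as Pearson's r of log2(FPKM + 1), a description over 6 groups of 2 libraries, in which the libraries of a group share their treatment. Nlrp4c and Nlrp4f were nearest to each other (r = 0.98), although they lie on different chromosomes. The next nearest genes to Nlrp4c were Xlr3c and Xlr (0.98 each), and to Nlrp4f Xlr4b (0.98) and Xlr3c (0.97), X-linked germ cell and lymphocyte genes. Nlrp14 was nearest to Robo1 (0.96), Pcmt1 and Cbll1 (0.95 each), and Obox6 to Myom2, Ptdss2 and Naaa (0.97 each). Zp3 stood apart from the others, with r of 0.56 to Nlrp4c, 0.61 to Nlrp4f, 0.57 to Nlrp14 and 0.72 to Obox6, and was nearest to Apod (0.95), Maats1 and Calcoco2 (0.93 each).

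Tested neighbours on the chromosome mostly had small differences in H3.1K36M against H3.1WT. On the far side of Nlrp4c, Zfp787 (start 86 kb away) differed by -0.08 and Zfp444 (127 kb) by -0.04, while Zscan5b (177 kb) was higher by 1.08 (limma adjusted p = 0.0139). Zfp369, 102 kb from Nlrp4f, differed by 0.21, and Rbmxl2, 42 kb from Nlrp14, by -0.10. Ehd2, 114 kb from Obox6, differed by 0.73 (limma adjusted p = 0.421). Near Zp3, Dtx2 (15 kb) differed by 0.20. On the other side Ywhag, the nearest there, differed by 0.39 (limma adjusted p = 0.217) and Hspb1 was higher by 0.57 (limma adjusted p = 0.00851). In shSuv39h2 against shNC neighbours differed in both directions. For example, Zfp787 differed by 0.50 (limma adjusted p = 0.0244) and Upk3bl, 74 kb from Zp3, by -0.65 (0.0104). Distances run from start to start.

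The protein partners of NLRP5 in the subcortical maternal complex were in part well expressed where Nlrp5 was near 0. Of 9 listed partner genes, 4 passed the minimum (Ooep, Tle6, Khdc3 and Zbed3). In H3.1K36M against H3.1WT, 1 of the 4 rose and none fell, with a median log2 difference of 0.04 beside 0.03 over all genes. That gene was Khdc3, which encodes the RNA-binding protein FILIA. It had 32.5 and 32.4 FPKM in H3.1K36M, 14.0 and 16.4 FPKM in H3.1K9M, and 11.3 and 12.6 FPKM in H3.1WT. Its mean was 32.5 ± 0.0588 FPKM in H3.1K36M and 11.9 ± 0.915 FPKM in H3.1WT, a log2 difference of 1.38 ± 0.16 (limma adjusted p = 0.00198). The shNC libraries held 29.5 and 37.1 FPKM of Khdc3, so H3.1WT was below shNC (-1.40, limma adjusted p = 0.0103) and H3.1K36M lay within the shNC range. Against H3.1K9M, H3.1K36M was higher in Khdc3 (1.05, limma adjusted p = 0.0047) and in Ooep (0.47, 0.0439), which encodes another core component. None of the 4 passed in shSuv39h1 or shSuv39h2 against shNC (limma), where 1 and 3 of them had an unadjusted p under 0.05. Nlrp2, a relative of Nlrp5 in this complex, was under 0.1 FPKM in all 12 libraries.

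**Figure D4:**
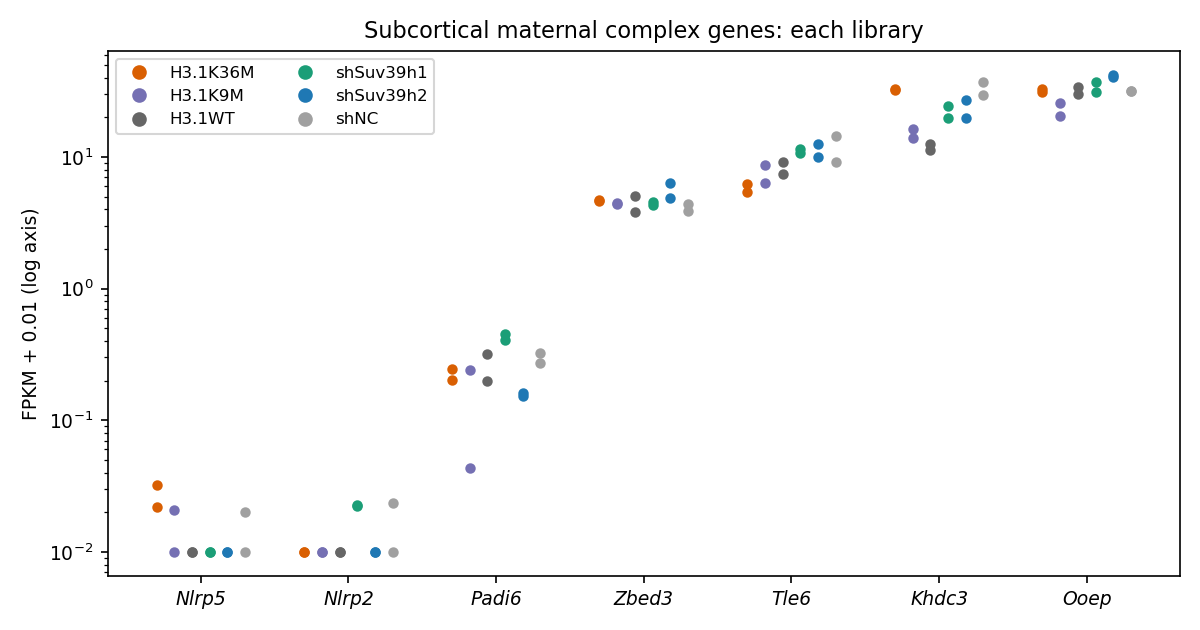
FPKM + 0.01 on a log axis for 7 subcortical maternal complex genes in each of the 12 libraries, coloured by group, with 0.01 added so that values of 0 can be drawn. Nlrp5 and Nlrp2 lie at the bottom, under 0.1 FPKM, and the H3.1K36M points of Khdc3, at 32.5 and 32.4 FPKM, lie above those of H3.1K9M and H3.1WT.

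Of 19 other Nlrp and related genes in the files, 3 passed the minimum (Nlrp1a, Nlrx1 and Nlrc5), all from the immune and mitochondrial side of the family. None of the 3 passed in H3.1K36M or H3.1K9M against H3.1WT (limma; 0 and 1 at an unadjusted p under 0.05), and Nlrp1a, an inflammasome sensor, was higher in shSuv39h2 (4.93 ± 0.434 FPKM) than in shNC (3.41 ± 0.495 FPKM; limma adjusted p = 0.041). Obox1 and Obox2, the other Obox genes in the files, were under 0.1 FPKM in all libraries. Chosen after their values were seen, the oocyte genes Nlrp9b and Nlrp4a are given without a test. Nlrp9b had 0.792 and 1.01 FPKM in H3.1K36M, against 0.471 and 0.406 FPKM in H3.1WT, and 0.172 FPKM in each shSuv39h2 library, against 0.437 and 0.625 FPKM in shNC. Nlrp4a had 0.220 and 0.195 FPKM in H3.1K36M, against 0.0231 and 0.0118 FPKM in H3.1WT, and 1 shNC library had 0.140 FPKM. In both genes, and in no other of the 19, the H3.1K36M libraries were the highest of the 12. Nlrp6 was instead highest in shSuv39h2 (0.745 and 0.820 FPKM), with 0.154 and 0.341 FPKM in H3.1K36M.

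None of 9 other zona-related genes passed the minimum. Zp2, whose product lies beside ZP3 in the egg coat and which was also chosen after its values were seen, had 0.612 and 0.925 FPKM in H3.1K36M, against 0.136 and 0.299 FPKM in H3.1WT, and 0.0539 and 0.0505 FPKM in shSuv39h2, against 0.193 and 0.0831 FPKM in shNC. Zp1 had 0.0859 and 0.290 FPKM in H3.1K36M, against 0.135 and 0.139 FPKM in H3.1WT, and overlapped. Figla, which encodes the E-box factor of the zona genes, had 0.131 and 0.136 FPKM in H3.1K36M, against 0.412 and 0.775 FPKM in H3.1WT. It stayed below the minimum and was not tested, with 0.187 and 0.859 FPKM in H3.1K9M and 0.190 and 0.297 FPKM in shSuv39h2. Thus Zp2 was highest, and Figla lowest, in the H3.1K36M libraries. Of the 9 zona-related genes, Astl was also highest there (0.256 and 0.213 FPKM), while Zpbp2 was lowest there (0.101 and 0.174 FPKM). Among the genes that passed the minimum, 13.4% had both H3.1K36M libraries above the 10 others. The share with both below was not counted.

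Of 11 oocyte transcription factor genes in the files, 6 were tested. In H3.1K36M against H3.1WT none rose and 1 fell, Gata4, which is also a gonadal and endodermal factor (0.748 ± 0.0711 FPKM in H3.1K36M and 1.54 ± 0.0434 FPKM in H3.1WT; limma adjusted p = 0.0331). Sohlh2, a basic helix-loop-helix factor of early germ cells, averaged 6.01 ± 0.783 FPKM in H3.1K9M and 12.6 ± 0.461 FPKM in H3.1WT (limma adjusted p = 0.0313). It averaged 4.77 ± 1.17 FPKM in shSuv39h2 and 15.5 ± 0.296 FPKM in shNC (limma adjusted p = 0.000516), where 2 of the 6 rose (Gata4 and Pou5f1) and Sohlh2 alone fell. Both Sohlh2 differences left the groups without overlap.

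Of 37 other oocyte genes in the files, 17 were tested. In H3.1K36M against H3.1WT 5 of the 17 rose and none fell, with a median log2 difference of 0.17 beside 0.03 over all genes. Kit, the receptor for Kit ligand on oocytes and other cells, averaged 24.3 ± 0.0558 FPKM in H3.1K36M and 13.3 ± 0.140 FPKM in H3.1WT (limma adjusted p = 0.00454). Dazl, a germ cell RNA-binding gene, averaged 9.41 ± 0.671 FPKM in H3.1K36M and 4.31 ± 0.652 FPKM in H3.1WT (0.00599). Npm2, the egg histone chaperone gene, averaged 1.77 ± 0.481 FPKM in H3.1K36M and 0.616 ± 0.323 FPKM in H3.1WT (0.027). Pdlim1 and Elavl2 were the other 2, higher by 0.59 (limma adjusted p = 0.00852) and 0.66 (0.033) on the log2 scale. In H3.1K9M against H3.1WT 1 of the 17 fell, Dazl, at 1.50 ± 0.174 FPKM in H3.1K9M and 4.31 ± 0.652 FPKM in H3.1WT (limma adjusted p = 0.0227). In shSuv39h2 against shNC 3 of the 17 fell and none rose, with a median of -0.27 beside 0.04 over all genes. Dazl averaged 1.76 ± 0.0817 FPKM in shSuv39h2 and 5.05 ± 1.16 FPKM in shNC (limma adjusted p = 0.00256). Gtsf1, a small-RNA pathway gene of germ cells, averaged 1.43 ± 0.402 FPKM in shSuv39h2 and 4.88 ± 0.0806 FPKM in shNC (limma adjusted p = 0.00363). Npm2 averaged 0.432 ± 0.0422 FPKM in shSuv39h2 and 1.55 ± 0.150 FPKM in shNC (limma adjusted p = 0.0128). None of the 17 passed in shSuv39h1 against shNC (limma; 2 at an unadjusted p under 0.05).

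**Figure D5:**
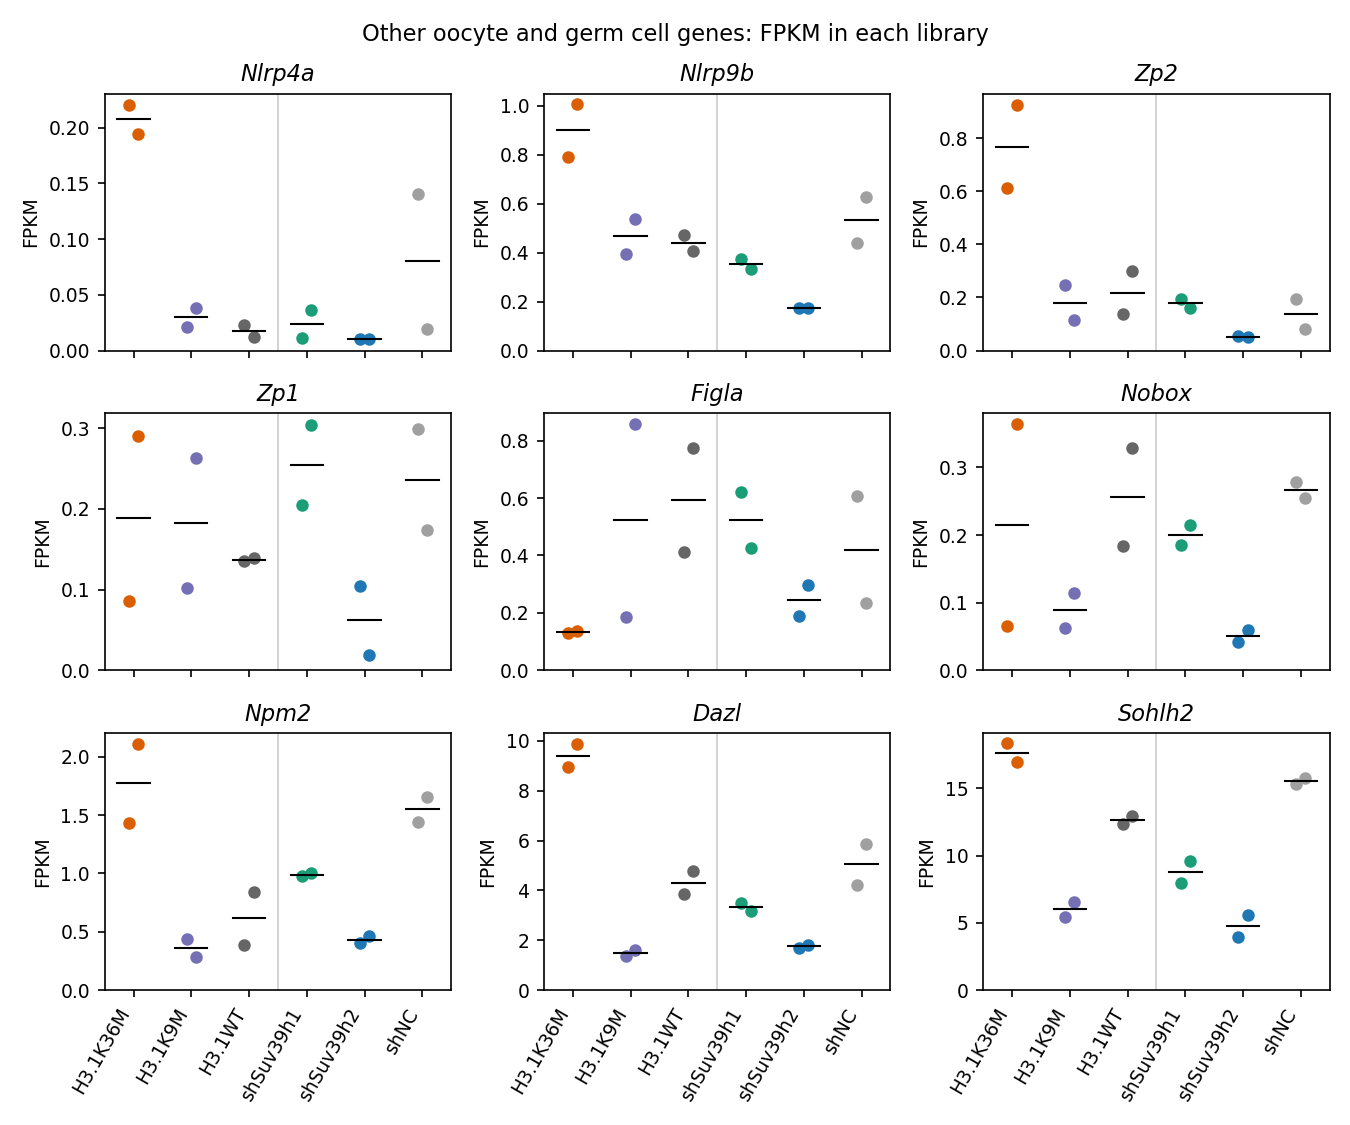
FPKM of 9 further oocyte and germ cell genes in each of the 12 libraries, with black lines for group means and each axis on its own scale. The H3.1K36M points are the highest in the panels of Nlrp4a, Nlrp9b, Zp2, Dazl and Sohlh2 and the lowest in that of Figla.

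The receptors and processing genes through which GDF9 and BMP15 act were mostly expressed, with 17 of 20 tested. None of the 17 passed in H3.1K36M, in H3.1K9M or in shSuv39h1 against its control (limma; 3, 3 and 1 at an unadjusted p under 0.05). In shSuv39h2 1 of the 17, Id1, a target of BMP signalling, rose (82.0 ± 9.55 FPKM in shSuv39h2 and 42.9 ± 8.78 FPKM in shNC; limma adjusted p = 0.00981).

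Levels of other cell types and states were set beside these results. The 23 genes in the files that mark 2-cell-like cells, a rare state of such cultures, had a summed level of 78.3 and 79.9 FPKM in H3.1K36M, 18.7 and 11.6 FPKM in H3.1K9M, and 48.2 and 42.4 FPKM in H3.1WT. The sum was 28.9 and 22.9 FPKM in shSuv39h1, 4.8 and 6.3 FPKM in shSuv39h2, and 34.5 and 50.5 FPKM in shNC. It was thus highest in H3.1K36M and lowest in shSuv39h2, as for 4 of the 10 genes. Of its 15 tested genes, 4 rose in H3.1K36M and 5 fell in H3.1K9M against H3.1WT, 15 were higher in H3.1K36M than in H3.1K9M, and 13 fell in shSuv39h2 against shNC. Pramel6 and Pramel7, among the 4 that rose, and Zscan4b met the minimum only with the help of H3.1K36M libraries. Their calls in H3.1K36M are therefore a description, as for Nlrp14. In bulk RNA more cells of a type and more RNA per cell cannot be told apart, and the part of such cells in the levels above was not tested.

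The 28 fibroblast feeder genes in the files, of which 26 were tested, summed to 2381 and 2327 FPKM in H3.1K36M, 3412 and 1816 FPKM in H3.1K9M, and 1232 and 1946 FPKM in H3.1WT. They summed to 1526 and 1034 FPKM in shSuv39h1, 1947 and 1545 FPKM in shSuv39h2, and 1457 and 1885 FPKM in shNC. The H3.1K36M sums were above those of H3.1WT, with 3 of the 26 called higher (Postn, Col6a2 and Col3a1) and 14 at an unadjusted p under 0.05 (limma). The median log2 difference of the 26 was 0.75, beside 0.03 over all genes. In H3.1K9M against H3.1WT the median was 0.71, beside -0.01 over all genes, with none called and 10 at an unadjusted p under 0.05. The H3.1K9M sums lay on either side of those of H3.1K36M. In shSuv39h2 against shNC, Thy1 and Mmp2 were called lower and none higher. None of the 28 was under 0.1 FPKM in all libraries, and their part in the levels of the 10 genes was not tested. Of 10 granulosa cell genes, 4 passed the minimum and none of these passed in any of the 7 comparisons (limma; at most 1 at an unadjusted p under 0.05), and the hormone receptor genes Fshr and Lhcgr were under 0.1 FPKM throughout. All 15 pluripotent cell markers passed the minimum, with sums of 3746 to 6011 FPKM, and some of them moved with the groups. In H3.1K36M 3 of the 15 were higher than in H3.1WT and none lower: Nanog, a core pluripotency factor (376 ± 3.39 FPKM in H3.1K36M and 192 ± 10.7 FPKM in H3.1WT; limma adjusted p = 0.0129), Tfcp2l1 and Fgf4. Against H3.1K9M 6 of the 15 were higher in H3.1K36M and none lower. In shSuv39h2 4 of the 15 were higher than in shNC and none lower (Pou5f1, Klf4, Klf2 and Utf1), where the 4 of the 10 genes described here that passed were lower. The part of these differences in the levels of the 10 genes was not tested. Between 12127 and 12519 genes reached 1 FPKM in a library.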

How the data were processed

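Messenger RNA was sequenced from 12 libraries, 2 in each of 6 groups taken from the labels. The authors deposited 1 FPKM value per gene and library, made with TopHat2 2.0.13 and Cuffdiff 2.2.1 on mm10, per the submitters' processing notes; no source used here gives the annotation or settings. The labels name 2 library kits without saying which library used which. Genes at 1 FPKM or more in at least 2 libraries (13109) were fitted together on log2(FPKM + 1) by limma (version 3.58.1; R version 4.3.3), using 6 group means, a mean-variance trend and Benjamini-Hochberg adjustment over all of them; the threshold was 0.05, two-sided, in 7 comparisons. The added 1 makes differences of weakly expressed genes smaller than their ratios. The code was tested on simulated data.

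Counts were not used here. Steps in low FPKM values of 2385 single-transcript genes gave an approximate depth of 21150000 to 28650000 fragments per library. At these depths 36.3 to 48.5% of low values lay within 0.05 of a whole step, against 10.0% by chance at a depth fixed beforehand. Each depth was picked for a high share of whole steps, so 10.0% is not the chance level of the picked depth. Fragment numbers are therefore approximate.

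The 10 genes and all gene lists were chosen with earlier results of these data known, so their calls are not independent evidence. All 10 are given; of each list, at most 6 called genes by smallest p, and as likeness the 3 nearest genes other than predicted ones. Alternatives were a pseudocount of 0.1, a minimum of 0.3 FPKM or none, median-of-ratios and quantile scaling, a replicate block, a fit of each arm alone and leaving out each library. Promoters came from RefSeq (GRCm38.p6), positions from GENCODE M21 (GRCm38), the same build as mm10.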

Additional observations from a re-analysis of the deposited data

How the results depend on the processing

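Of the 16 calls on single genes among the 10, 5 passed under every alternative: Nlrp4c in H3.1K36M against H3.1WT and against H3.1K9M, Nlrp4f and Obox6 in H3.1K36M against H3.1K9M, and Obox6 in shSuv39h2 against shNC. The Nlrp4c calls rest on H3.1K36M values known when the genes were chosen, so their passing is a description only. All 173 alternatives of these 16 results had the same direction, 125 passed and 48 did not, 33 of them without a library. The differences between replicates correlated from -0.384 to 0.517 between groups, so whether the replicate numbers pair samples in some groups was not settled. With a replicate block the number of the 10 genes called was 0 in H3.1K9M against H3.1WT, 2 in shSuv39h2 against shNC and 1 in shSuv39h1 against shSuv39h2. In all, 10 genes were called in shSuv39h1 against shNC with that block.

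Over all genes, the numbers called were 41 in H3.1K9M and 634 in H3.1K36M against H3.1WT, 1080 in H3.1K36M against H3.1K9M, 19 in shSuv39h1 and 1316 in shSuv39h2 against shNC, 860 in shSuv39h1 against shSuv39h2, and 44 in H3.1WT against shNC. Fitted on their own arm they were 2, 191, 521, 3, 861, 367 and, with these controls alone, 1. Leaving out each library gave 2 to 696, 58 to 200, 209 to 1422, 0 to 18, 358 to 1558, 76 to 221 and 7 to 158 in the same order. A pseudocount of 0.1 gave 11 in shSuv39h1 against shNC, and no minimum gave 12 in H3.1K9M against H3.1WT. The 10 genes gave 2 calls in shSuv39h2 against shNC and 1 in shSuv39h1 against shSuv39h2 after quantile scaling, and 0, 1 and 0 on their own arm in H3.1K9M against H3.1WT, shSuv39h2 against shNC and shSuv39h1 against shSuv39h2. Without 1 library they gave 0 to 1, 1 to 3, 3 to 5, 1 to 2 and 0 to 1 calls in the 5 comparisons with calls. The direction turned only in shSuv39h1 against shNC, where no gene was called: leaving out libraries gave -0.1055 to 0.0669 for Nlrp4c, -0.2164 to 0.0493 for Nlrp4f and -0.0681 to 0.1653 for Zp3; Nlrp4c was also 0.0448 without shSuv39h1 replicate 2. The causes were not tested. With 2 libraries a group, differences at low FPKM are limited by depth.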
